A study of Mus musculus with 24 samples.

Results

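The genes described are 9 genes of the Nrf2 pathway and of glutathione synthesis, measured by RNA sequencing in mouse oocytes. They are Nfe2l2, Keap1, Hmox1, Nqo1, Gclc, Gclm, Gss, Gsr and Slc7a11, taken by gene name from a count table of 55401 genes. Each of the 9 names matched 1 gene identifier, and all 9 were among the 16736 genes that passed the filter on low counts. The study asked how low-dose microplastics act on oocyte maturation and on histone deacetylases, and also profiled acetylation of histone H4 at lysine 16, which was not analysed here. Each RNA library was made from 5 pooled oocytes. The submitters' design text calls these embryos, while the sample labels call them oocytes.

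The 6 groups had 2 libraries each. PSMPs & OE-Hdac3 were oocytes exposed to polystyrene microplastics (PSMPs) and overexpressing Hdac3, which encodes a histone deacetylase. The labels do not say whether that exposure was in the animal or in culture. SAHA were oocytes treated with SAHA (vorinostat), an inhibitor of histone deacetylases, with no control named. In vitro PSMPs and in vivo PSMPs were oocytes exposed in culture and in the animal. The controls were con-in vitro, labelled for culture, and con, with no culture tag. The labels used here give no strain, age, dose or duration, and no allele or agent shared by all groups. They do not say whether the libraries of a group came from different mice, so a p-value reflects how far these libraries differed, which may be technical.

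Nrf2, the product of Nfe2l2, is a transcription factor that binds antioxidant response elements together with small Maf proteins. Keap1 holds Nrf2 in the cytoplasm and hands it to a Cul3 ubiquitin ligase for degradation, and oxidants or electrophiles loosen that hold. Hmox1 and Nqo1 are its classic target genes. Glutathione, the main small thiol of the oocyte, is built up during maturation and used to decondense the sperm nucleus after fertilisation. Its synthesis starts from cystine, which the xCT antiporter encoded by Slc7a11 imports. Glutamate-cysteine ligase (catalytic subunit Gclc, modifier subunit Gclm) joins glutamate and cysteine, glutathione synthetase (Gss) adds glycine, and glutathione reductase (Gsr) regenerates the reduced form.

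The promoter of Slc7a11 is shown because this gene had the most counts of the 9 in every library and came nearest to the test's threshold in 3 comparisons with con-in vitro. The sequence runs from 250 bases before the transcription start to 50 bases from it, on the minus strand of chr3:50443564-50443863 in GRCm38.p6, from RefSeq. Capitals mark both copies of TGATGCAAA, a letter pattern of amino acid response elements, searched on both strands.

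Slc7a11 promoter: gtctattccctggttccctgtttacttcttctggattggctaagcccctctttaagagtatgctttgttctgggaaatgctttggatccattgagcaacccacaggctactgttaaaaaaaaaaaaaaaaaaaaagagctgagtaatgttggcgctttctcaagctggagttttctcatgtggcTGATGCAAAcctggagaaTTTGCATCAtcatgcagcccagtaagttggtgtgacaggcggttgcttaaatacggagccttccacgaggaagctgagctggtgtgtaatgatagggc

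The first copy begins 66 bases before the start on the strand of the gene, and the second 48 bases before it on the opposite strand. TGATGCAAA was found in 0.271% of 32841 promoters of the same length, and 2 or more copies in 0.00609%. Of the 9 genes, 6 had a promoter in the RefSeq table (Nfe2l2, Keap1, Nqo1, Gclm, Gss and Slc7a11), and of these Slc7a11 alone held the pattern. The core letters of an antioxidant response element, TGACNNNGC, were found in 12.4% of all promoters and in 2 of the 6. These stretches are shown with the core in capitals and 10 bases on each side, because they belong to the transcription factor itself and to one of its targets.

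Nfe2l2, chr2:75704885-75704913, minus strand: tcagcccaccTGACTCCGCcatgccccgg

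Gclm, chr3:122245413-122245441, plus strand, core on the opposite strand: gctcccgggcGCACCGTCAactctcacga

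The core began 240 bases before the start in Nfe2l2 and 134 bases before it in Gclm. A match of letters is a description of the sequence and not evidence of binding.

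Depth ran from 6219784 to 35637689 counts per library, lowest in con-in vitro, and levels are in CPM (counts scaled to library size). Where a group had no count of a gene, 3 counts over the whole group were taken as its floor, which is 0.0773 CPM for in vivo PSMPs, 0.427 CPM for con-in vitro and 0.0444 CPM for con. Each bound on a fold change sets the mean of the other group against this floor, so a single library can lie nearer to it. Between the pair of columns for in vivo PSMPs the difference was smaller than the sampling noise (chi-square over degrees of freedom of 0.44, against 18.4 to 406 in the other groups), and they were counted as 1 sample, assumed to vary like the others. Con and con-in vitro libraries held 11640 to 12843 detected genes, in vivo PSMPs 17559, and the other libraries 20284 to 20957. Hdac3 stood at 336 and 228 CPM in PSMPs & OE-Hdac3 and at 7.17 to 37.4 CPM in the other libraries, as the label of overexpression states. Of 15 oocyte markers, 14 or 15 had counts in every library. Their summed level was 15076 to 42272 CPM in treated libraries, 11253 and 11996 CPM in con-in vitro, and 29696 and 31289.5 CPM in con. Of 20 markers of cumulus and granulosa cells, which surround the oocyte, in vivo PSMPs had counts for 16, and each other treated library for 11 to 16. In the control libraries 5 or 6 of them did. Summed, they gave 166 CPM for in vivo PSMPs, 44.9 to 87 CPM for the other treated libraries and 35.8 to 101 CPM for the controls. Levels are given as CPM after scaling by the trimmed mean of M values (TMM). Fewer cells of a type and less RNA per cell cannot be told apart in such libraries.

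**Figure D1:**
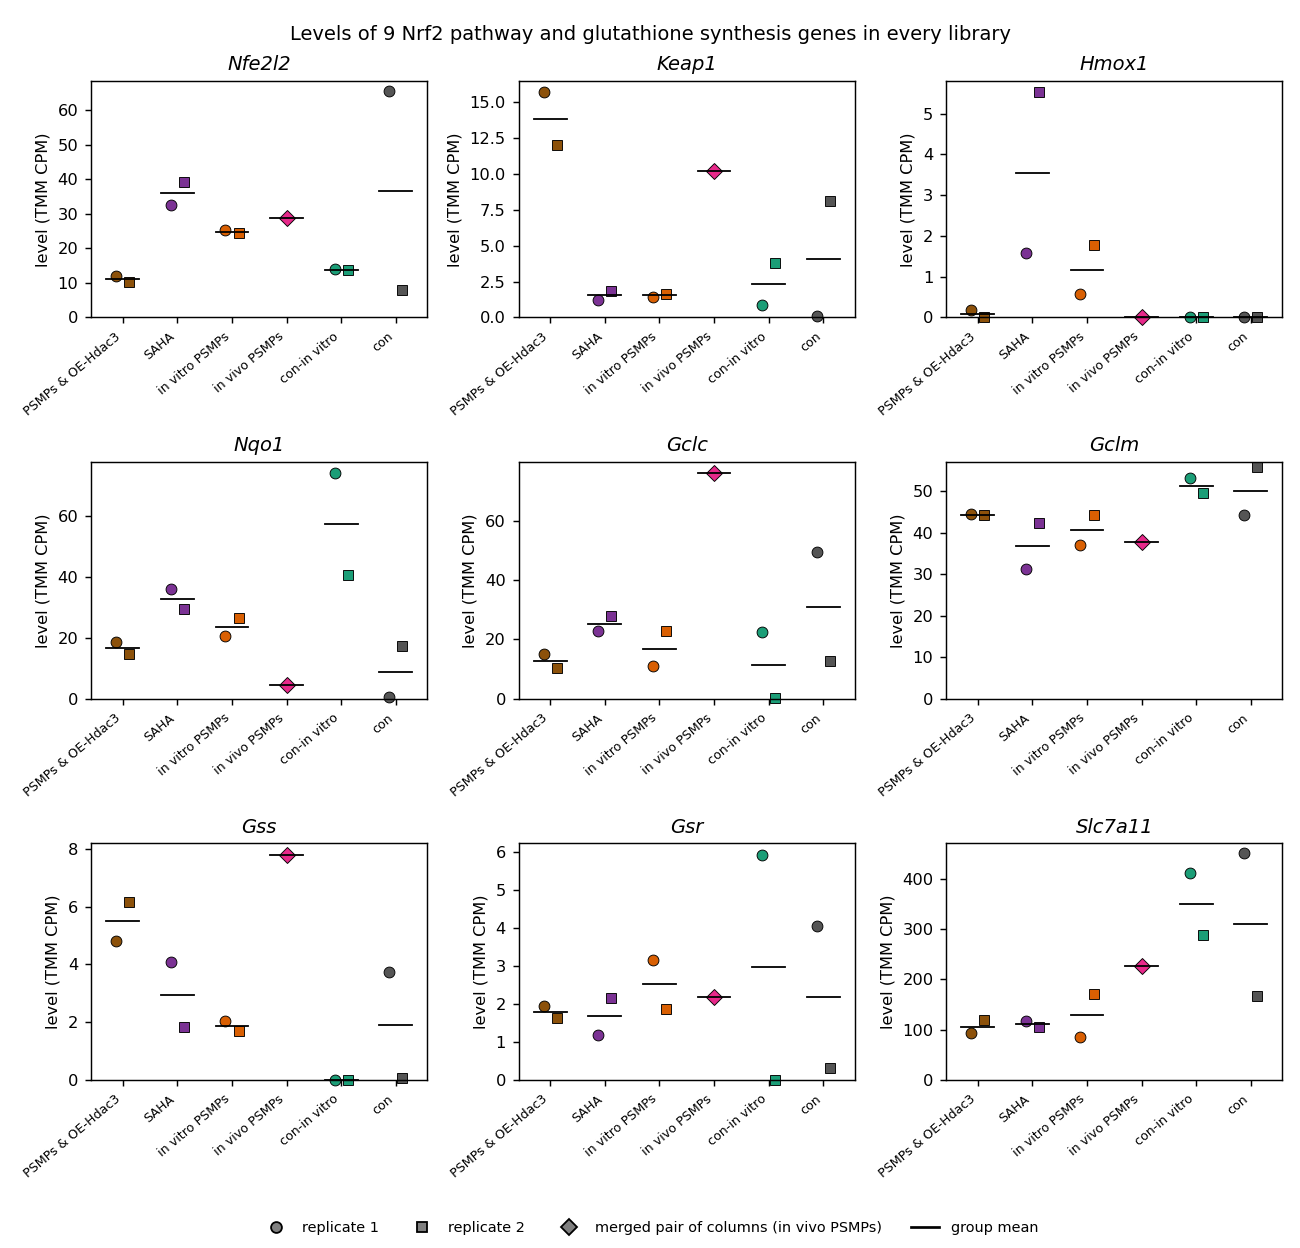
Level (TMM CPM, linear axis from 0) of each of the 9 genes in 11 libraries, by group. Circles and squares are replicates 1 and 2, the diamond is the merged pair of in vivo PSMPs columns, and lines are group means. Gclm lies between 31.3 and 55.8 CPM throughout, Slc7a11 is highest in con replicate 1 and in con-in vitro, and Hmox1 is at 0 in in vivo PSMPs and in both control groups.

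Across the 9 genes, 1 change in 1 comparison passed the test at an adjusted p of 0.05 (edgeR's quasi-likelihood test with Benjamini-Hochberg adjustment over 16736 genes). Hmox1 was higher in SAHA than in con. This gene had 0 counts in con and passed the filter only through SAHA and in vitro PSMPs, the groups where it was high. Slc7a11 came nearest to the threshold elsewhere, and lay below con-in vitro in 3 treated groups. The 2 con libraries stood further apart than the median gene in 7 of the 9 genes.

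Nfe2l2 (ENSMUSG00000015839.6, mm10 chromosome 2, 75675513 to 75704641) stood at 12.0 and 10.2 CPM in PSMPs & OE-Hdac3 and at 32.6 and 39.2 CPM in SAHA. It stood at 25.3 and 24.3 CPM in in vitro PSMPs and 28.7 CPM in in vivo PSMPs. The controls gave 13.9 and 13.7 CPM in con-in vitro, and 65.5 and 7.88 CPM in con. Both in vitro PSMPs libraries and both SAHA libraries lay above both con-in vitro libraries, and both PSMPs & OE-Hdac3 libraries lay below them. The con libraries enclosed every other library. The log2 fold change was 0.85 ± 0.85 (SE) in in vitro PSMPs against con-in vitro (adjusted p = 0.511) and 1.38 ± 0.86 in SAHA against con-in vitro (adjusted p = 0.269). When libraries were scaled by their totals in place of TMM factors, PSMPs & OE-Hdac3 stood at 18.8 and 15.9 CPM, above the 7.56 and 7.81 CPM of con-in vitro.

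Keap1 (ENSMUSG00000003308.15, chromosome 9, 21229730 to 21239361), the repressor of Nrf2, stood at 15.7 and 12.0 CPM in PSMPs & OE-Hdac3, 1.24 and 1.88 CPM in SAHA, and 1.46 and 1.62 CPM in in vitro PSMPs. In in vivo PSMPs it stood at 10.2 CPM. It stood at 0.89 and 3.83 CPM in con-in vitro (3 and 14 counts) and at 0.0695 and 8.09 CPM in con (2 and 314 counts). PSMPs & OE-Hdac3 held the highest levels, above every other library. Against in vitro PSMPs the log2 fold change was 3.17 ± 1.70 (adjusted p = 0.351), and it passed the test in 3 of 20 alternatives (adjusted p from 0.00186 to 0.758). These were the fit to only these 2 groups and the fits without either con library.

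The level of Hmox1 (ENSMUSG00000005413.8, chromosome 8, 75093621 to 75100589), which encodes the heme-degrading enzyme heme oxygenase 1, was low in all libraries. In PSMPs & OE-Hdac3 there were 3 and 0 counts (0.195 and 0 CPM), in SAHA 28 and 97 counts (1.58 and 5.52 CPM), and in in vitro PSMPs 7 and 22 counts (0.567 and 1.78 CPM). No count was seen in in vivo PSMPs, con-in vitro or con. These counts of 0 allow up to 0.0773 CPM for in vivo PSMPs, 0.427 CPM for con-in vitro and 0.0444 CPM for con. SAHA and in vitro PSMPs were thus the groups with counts in both libraries, and their levels overlapped each other.

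The mean of Hmox1 in SAHA was at least 80-fold that in con, computed against 3 counts over the control group (adjusted p = 0.0215). Hmox1 was higher in 2 of 2 SAHA libraries. The call was lost without SAHA replicate 1 (adjusted p = 0.0637), without SAHA replicate 2 (0.0718) and with only these groups fitted (0.09), and the adjusted p ran from 0.00495 to 0.09 over 19 alternatives. Against the shallower con-in vitro the bound on the mean was 8.32-fold in SAHA (adjusted p = 0.0691) and 2.75-fold in in vitro PSMPs (adjusted p = 0.146). Replicate 1 of in vitro PSMPs alone, at 0.567 CPM, lay near the floor of 0.427 CPM. With library totals, the SAHA comparison with con-in vitro passed (adjusted p = 0.0453).

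Nqo1 (ENSMUSG00000003849.8, chromosome 8, 107388225 to 107403206) encodes a quinone reductase. It stood at 18.5 and 14.8 CPM in PSMPs & OE-Hdac3, 36 and 29.6 CPM in SAHA, 20.6 and 26.7 CPM in in vitro PSMPs, and 4.61 CPM in in vivo PSMPs. The controls gave 74.2 and 40.7 CPM in con-in vitro and 0.556 and 17.3 CPM in con. Con-in vitro lay above every other library, and SAHA lay above con. The log2 fold change was 1.87 ± 1.16 in SAHA against con (adjusted p = 0.265) and -1.28 ± 1.14 in in vitro PSMPs against con-in vitro (adjusted p = 0.455). With library totals PSMPs & OE-Hdac3 (29 and 23.2 CPM), SAHA (33.1 and 26.8 CPM) and in vitro PSMPs (25.3 and 26.3 CPM) all overlapped con-in vitro (40.2 and 23.3 CPM) in Nqo1.

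Slc7a11, the cystine importer (ENSMUSG00000027737.10, chromosome 3, 49892526 to 50443614), stood at 92.3 and 118 CPM in PSMPs & OE-Hdac3, 117 and 105 CPM in SAHA, and 85.2 and 171 CPM in in vitro PSMPs. In vivo PSMPs held 226 CPM. Con-in vitro held 411 and 289 CPM, and con 452 and 167 CPM. The treated libraries other than in vivo PSMPs were all below both con-in vitro libraries, and the SAHA and PSMPs & OE-Hdac3 libraries were below both con libraries as well.

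Relative to con-in vitro, the log2 fold change of Slc7a11 was -1.74 ± 0.52 in PSMPs & OE-Hdac3 (adjusted p = 0.084), -1.66 ± 0.52 in SAHA (adjusted p = 0.0543) and -1.45 ± 0.52 in in vitro PSMPs (adjusted p = 0.0909). In SAHA against con it was -1.48 ± 0.52 (adjusted p = 0.0635). None of these 4 passed. They share control libraries, so they are not independent of each other. Each stayed below 0 in all 20 alternatives, and passed the test in 5 of them for PSMPs & OE-Hdac3, 6 for SAHA against con-in vitro, 5 for SAHA against con and 2 for in vitro PSMPs. With library totals the con-in vitro libraries fell to 223 and 165 CPM. In vitro PSMPs (105 and 169 CPM) and PSMPs & OE-Hdac3 (145 and 184 CPM) then overlapped them, while SAHA (108 and 94.6 CPM) did not. The log2 fold changes against con-in vitro were then -0.24 in PSMPs & OE-Hdac3, -0.94 in SAHA and -0.50 in in vitro PSMPs.

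Gclc (ENSMUSG00000032350.9, chromosome 9, 77754535 to 77794485), the catalytic subunit, stood at 15.0 and 10.4 CPM in PSMPs & OE-Hdac3, 22.7 and 27.8 CPM in SAHA, and 11.0 and 22.7 CPM in in vitro PSMPs. It reached 76.1 CPM in in vivo PSMPs. Con-in vitro held 22.6 and 0.273 CPM (76 counts and 1 count) and con 49.4 and 12.8 CPM. In vivo PSMPs was above every other library, but with 1 sample the log2 fold change of 1.29 ± 1.5 against con did not pass (adjusted p = 0.666).

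Gclm (ENSMUSG00000028124.15, chromosome 3, 122245557 to 122270732), the modifier subunit, had the narrowest range of the 9 genes in proportion to its level. It stood at 44.5 and 44.2 CPM in PSMPs & OE-Hdac3, 31.3 and 42.3 CPM in SAHA, 37.0 and 44.4 CPM in in vitro PSMPs, and 37.8 CPM in in vivo PSMPs. The controls gave 53.1 and 49.7 CPM in con-in vitro and 44.4 and 55.8 CPM in con. In vitro PSMPs and SAHA lay below con-in vitro with TMM factors and at or above it with library totals (45.4 and 43.8 CPM in in vitro PSMPs, 28.8 and 38.3 CPM in SAHA, against 28.8 and 28.4 CPM in con-in vitro), so its direction depends on the scaling. The fitted log2 fold change of Gclm in in vitro PSMPs was -0.34 ± 0.42 (adjusted p = 0.604), and 0.64 with library totals.

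Per kilobase of gene length, the level of Gclm over that of Gclc was 1.77 and 2.55 in PSMPs & OE-Hdac3, 0.825 and 0.913 in SAHA, 2.01 and 1.17 in in vitro PSMPs, and 0.298 in in vivo PSMPs. In con-in vitro it was 1.41 in replicate 1 and rested on a single Gclc count in replicate 2. In con it was 0.537 and 2.62. This ratio does not depend on the scaling of a library. In vivo PSMPs was the lowest, and the con libraries enclosed SAHA, in vitro PSMPs and PSMPs & OE-Hdac3.

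Gss (ENSMUSG00000027610.17, chromosome 2, 155563181 to 155592810), which encodes the enzyme of the last step, stood at 4.81 and 6.18 CPM in PSMPs & OE-Hdac3, 4.07 and 1.82 CPM in SAHA, 2.03 and 1.70 CPM in in vitro PSMPs, and 7.81 CPM in in vivo PSMPs. It had 0 counts in both con-in vitro libraries and 3.75 and 0.0515 CPM in con (108 and 2 counts). Every treated library lay above con-in vitro. The bounds were at least 12.9-fold in PSMPs & OE-Hdac3 (adjusted p = 0.117), 6.91-fold in SAHA (0.0979) and 4.36-fold in in vitro PSMPs (0.14), so none passed. Con-in vitro was at least 4.46-fold lower than the mean of con (adjusted p = 0.122), a bound that rests on con replicate 1. Without that library the adjusted p was 0.613 and con replicate 2 lies under the floor of con-in vitro, so no bound can be given. Acss2 overlaps Gss on the opposite strand and had at most 42 counts. The labels do not say whether counting used strand, so reads from such a pair cannot be told apart.

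Gsr (ENSMUSG00000031584.16, chromosome 8, 33652523 to 33698163) stood at 1.95 and 1.64 CPM in PSMPs & OE-Hdac3, 1.19 and 2.16 CPM in SAHA, 3.16 and 1.86 CPM in in vitro PSMPs, and 2.17 CPM in in vivo PSMPs. Con-in vitro held 5.93 and 0 CPM (20 and 0 counts) and con 4.06 and 0.309 CPM. The control libraries enclosed all treated libraries. The log2 fold change of Gsr was -0.24 ± 1.71 in in vitro PSMPs against con-in vitro (adjusted p = 0.95).

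By level per kilobase, the order of the genes was alike in the groups at its lower end. Keap1, Gss, Gsr and Hmox1 held the last 4 places in every group other than PSMPs & OE-Hdac3, where Keap1 averaged 2.96 CPM per kilobase, next to Nfe2l2 at 2.92. Nqo1 came first in PSMPs & OE-Hdac3 (10.7 CPM per kilobase), SAHA (21.1), in vitro PSMPs (15.2) and con-in vitro (37.0). Slc7a11 came first in con (22.2) and Gclc in in vivo PSMPs (20.2, next to Slc7a11 at 16.2).

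**Figure D2:**
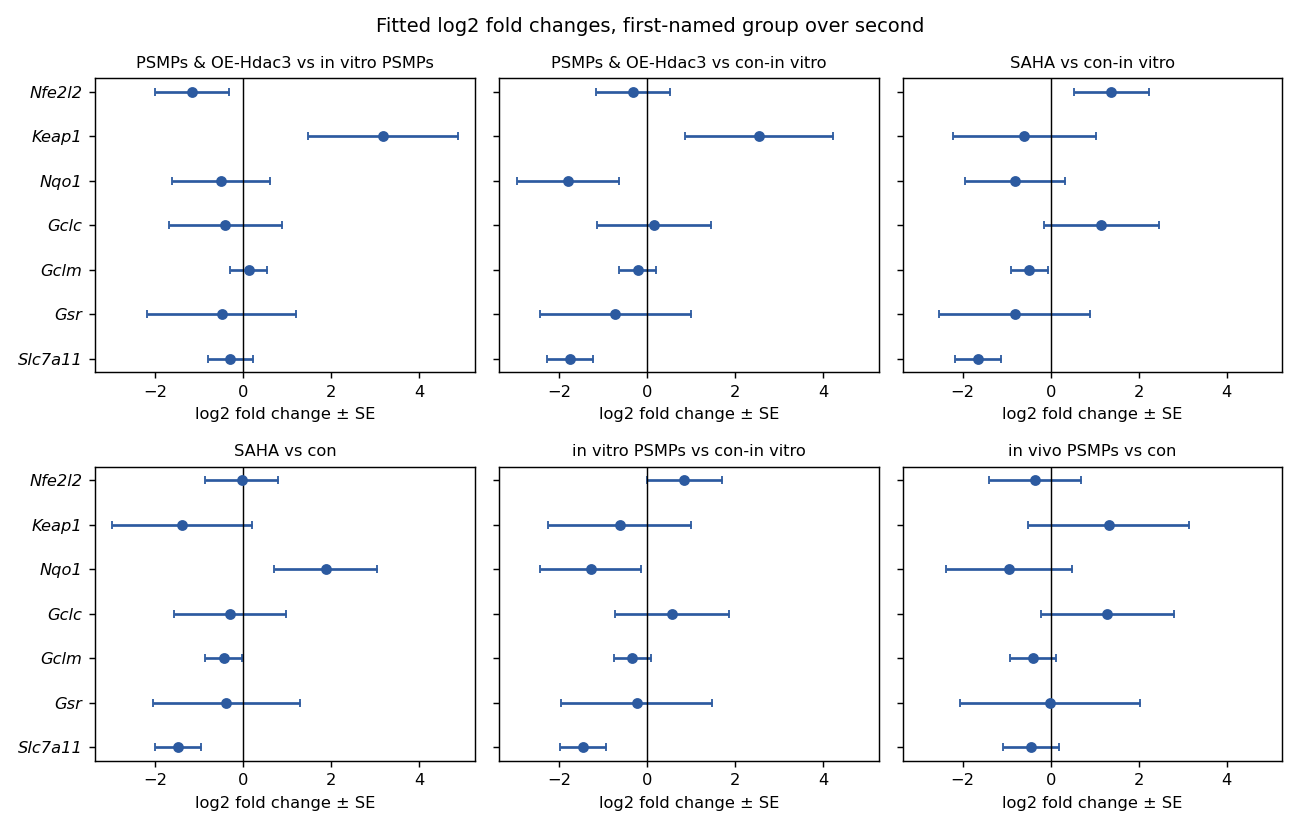
Fitted log2 fold change with its standard error (x axis) of 7 genes in 6 comparisons, the first-named group over the second. Hmox1 and Gss are left out because groups at 0 make their fitted values depend on the prior count, and in vivo PSMPs is 1 sample. Slc7a11 lies left of 0 in all 6 panels and Gclm has the shortest bars.

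Exposure in the animal was compared with con. None of the 9 genes passed, against 4.88% of all genes tested, and the adjusted p ran from 0.552 to 1 (0 of 9 had an unadjusted p under 0.05, and DESeq2 called 0). In vivo PSMPs lay above both con libraries in Keap1, Gclc and Gss and below both in Gclm, so that 4 of 9 genes did not overlap, where 68.1% of all genes did not. With library totals Gclm overlapped. The log2 fold changes were 1.32 ± 1.83 for Keap1, 2.04 ± 1.83 for Gss, -0.35 ± 1.04 for Nfe2l2, -0.96 ± 1.43 for Nqo1 and -0.45 ± 0.64 for Slc7a11. The members' median was -0.01, and that of all genes 0.25. The fold changes turned on which con library was kept. Without con replicate 1 log2 was 7.05 for Gss, 0.335 for Keap1 and -1.91 for Nqo1. Without con replicate 2 it was 1.03 for Gss, 7.03 for Keap1 and 3.01 for Nqo1. Each of these fits sets 1 sample against 1 con library, so only fold changes are given. Summed cumulus and granulosa markers stood at 166 CPM in in vivo PSMPs, against 47.5 and 70.8 CPM for con, and their part in these levels was not tested.

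Exposure in culture was compared with con-in vitro. None of the 9 passed, where 15.4% of all genes did (3 had an unadjusted p under 0.05, and DESeq2 called 0). By the listed values Nfe2l2, Hmox1 and Gss lay above both con-in vitro libraries and Nqo1, Gclm and Slc7a11 below, 6 of 9 against 64.3% of all genes. For Hmox1 this was not resolved at this depth, since replicate 1 of in vitro PSMPs rests on 7 counts and lies near the floor of con-in vitro. The members' median log2 fold change was -0.24 and that of all genes 0.71, which scaling by totals moved to 1.70. Leaving out con replicate 1 or 2 leaves both compared groups whole and moves mainly the estimate of spread. Gss and Slc7a11 then passed (adjusted p of 0.0182 to 0.0248), where 32% and 32.6% of all genes did. Without con-in vitro replicate 1, the log2 fold change of Gclc was 5.91, against the library with 1 count. In the test of the difference between the effects of exposure in culture and in the animal, none of the 9 passed, with an adjusted p of at least 0.453, where 11.3% of all genes passed.

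SAHA was compared with both controls. Against con-in vitro none of the 9 passed, where 19.8% of all genes did (3 had an unadjusted p under 0.05, and DESeq2 called 2, Gss and Slc7a11). By the listed values Nfe2l2, Hmox1, Gclc and Gss lay above it and Nqo1, Gclm and Slc7a11 below, 7 of 9 against 68.4% of all genes. For Gclc this was not resolved with TMM factors, at 22.7 CPM in SAHA replicate 1 against 22.6 CPM (76 counts) in con-in vitro replicate 1. With library totals Nqo1 overlapped con-in vitro and Gclm was at or above it. Against con 1 of 9 passed, Hmox1, where 27% of all genes did. Hmox1 and Nqo1 lay above con and Gclm and Slc7a11 below, 4 of 9 against 63.4% of all genes. The median log2 fold change of the members was -0.48 against con-in vitro (all genes 0.66) and -0.30 against con (all genes 0.59). Without con replicate 1 or 2, Nfe2l2, Hmox1, Gss and Slc7a11 passed against con-in vitro (adjusted p of 0.0093 to 0.0431), where 38.2% and 38% of all genes did. The log2 fold change of Gclc against con-in vitro ran from 0.163 to 6.5 over the alternatives. Against con, a fit without 1 con library leaves 1 library in that group, so only fold changes are given. Over the alternatives log2 ran from -2.37 to 4.16 for Keap1, 0.918 to 5.67 for Nqo1 and -2.22 to -0.594 for Slc7a11. It ran from -1.06 to 2.19 for Nfe2l2 and -0.542 to 5.65 for Gss.

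PSMPs & OE-Hdac3 was compared with both exposed groups and with con-in vitro. Against in vitro PSMPs none of the 9 passed, where 4.83% of all genes did (0 had an unadjusted p under 0.05, and DESeq2 called 0). Keap1 and Gss lay above and Nfe2l2, Hmox1 and Nqo1 below, 5 of 9 against 72% of all genes. With only these 2 groups fitted, Nfe2l2, Keap1 and Gss passed, where 33.4% of all genes did. Against in vivo PSMPs edgeR called none of the 9 and 0% of all genes, while 2407 genes had an unadjusted p under 0.05 and DESeq2 called 870, none of them among the 9. In that comparison 8 of 9 genes did not overlap, where 86.7% of all genes did not. Against con-in vitro none of the 9 passed, where 6.41% of all genes did (2 had an unadjusted p under 0.05, and DESeq2 called 2, Gss and Slc7a11), and 6 of 9 did not overlap, where 65.8% of all genes did not.

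The 2 controls were compared with each other, con-in vitro against con. None of the 9 passed, where 25.1% of all genes did (1 had an unadjusted p under 0.05, and DESeq2 called 2). By the listed values Nqo1 lay above con (log2 2.68 ± 1.19, adjusted p = 0.139) and Gss below, 2 of 9 against 43.5% of all genes. For Gss this was not resolved, since con replicate 2, at 0.0515 CPM, lies under the floor of con-in vitro. The overlaps depended on the scaling. With library totals Nfe2l2, Gclc and Gclm also lay below con, and with DESeq2 size factors Gclm lay above it. Some alternatives leave 1 library in a control group, so only fold changes are given. Over the alternatives log2 ran from -2.41 to 0.807 for Nfe2l2, -2.19 to 4.77 for Keap1 and 1.71 to 6.51 for Nqo1.

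**Figure D3:**
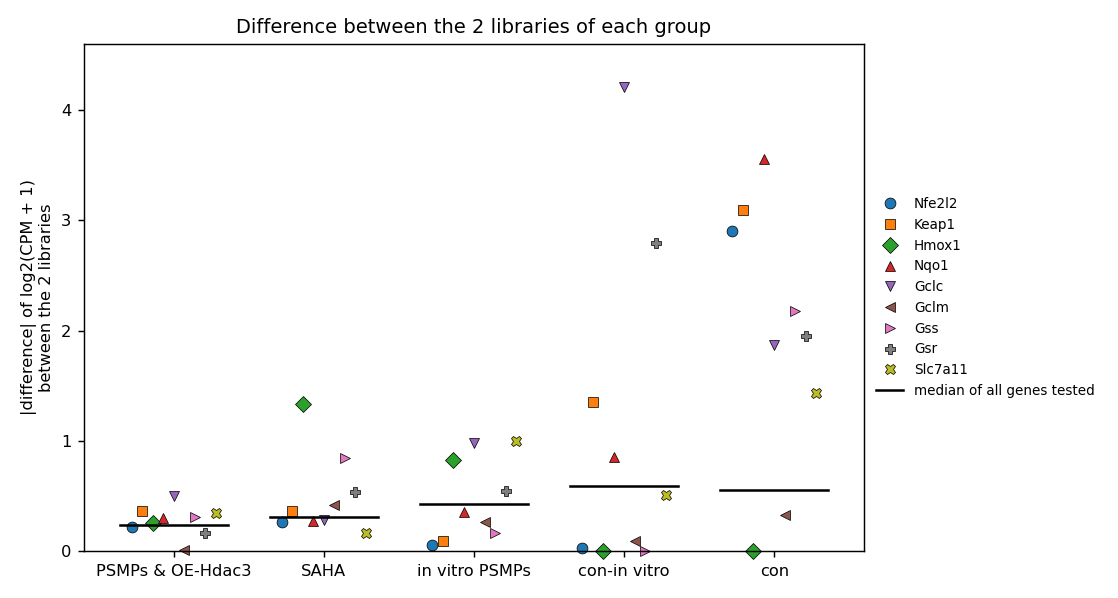
Absolute difference of log2(CPM + 1) between the 2 libraries of each group (y axis) for the 9 genes, with a line at the median of all genes tested. In con 7 of the 9 genes lie above that line, up to 3.56 for Nqo1, and in con-in vitro Gclc reaches 4.21.

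How far the 2 libraries of a group stood apart differed between groups. In con the absolute difference of log2(CPM + 1) was 3.56 for Nqo1, 3.09 for Keap1 and 2.90 for Nfe2l2, where the median of all genes tested was 0.56. These values lay at the 95.1, 92.2 and 90.9 percentiles of all genes. Nfe2l2, Gclc, Gss, Gsr and Slc7a11 were higher in con replicate 1 and Keap1, Nqo1 and Gclm in con replicate 2. In con-in vitro, Gclc differed by 4.21 (99.1 percentile) and Gsr by 2.79 (92.6 percentile), both higher in replicate 1. Nfe2l2 differed there by 0.03 and Gclm by 0.09. In PSMPs & OE-Hdac3, SAHA and in vitro PSMPs, no gene of the 9 differed by more than 1.33, the value of Hmox1 in SAHA.

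In the comparisons with con-in vitro, which share those libraries, other genes of the pathway passed the test. Of 14 regulators of Nrf2 outside the 9, 1 rose and 4 fell in in vitro PSMPs against con-in vitro, and 1 rose and 3 fell in SAHA against con-in vitro. Of all genes 8.57% were higher and 6.78% lower in the first of these comparisons, and 11.7% and 8.14% in the second. In SAHA against con 2 of the 14 rose and 2 fell (20.2% and 6.75% of all genes), and without SAHA replicate 1 or 2 none rose and 0 or 1 fell. Without con-in vitro replicate 1 there were 3 higher and 4 lower in both comparisons with con-in vitro, and without con replicate 1 there were 2 higher and 5 lower in both of these. Mafg, a small Maf partner of Nrf2, stood at 80.4 and 66.5 CPM in PSMPs & OE-Hdac3, 22.5 and 25.1 CPM in SAHA, 7.70 and 18.6 CPM in in vitro PSMPs, and 83.0 CPM in in vivo PSMPs. It stood at 252 and 306 CPM in con-in vitro and 125 and 132 CPM in con. Mafg fell in in vitro PSMPs (log2 -4.41 ± 0.50, adjusted p = 0.000629) and in SAHA (log2 -3.55 ± 0.48, 0.00124) against con-in vitro. It was higher in PSMPs & OE-Hdac3 than in in vitro PSMPs (log2 2.48 ± 0.46, 0.0206), a call kept in 14 of 20 alternatives and lost without any 1 library of in vitro PSMPs, SAHA or PSMPs & OE-Hdac3 (adjusted p from 1.06e-05 to 0.185 over the alternatives).

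Nfe2l1, a relative of Nfe2l2, had 87.7 and 88.0 CPM in PSMPs & OE-Hdac3, 12.5 and 13.2 CPM in SAHA, 13.4 and 17.5 CPM in in vitro PSMPs, and 53.6 CPM in in vivo PSMPs. It had 85.5 and 93.7 CPM in con-in vitro and 105 and 89.9 CPM in con. Both libraries of SAHA and of in vitro PSMPs were below every other library. The fall against con-in vitro was log2 -2.80 ± 0.40 in SAHA (adjusted p = 0.00162) and -2.54 ± 0.39 in in vitro PSMPs (0.00299). PSMPs & OE-Hdac3 was higher than in vitro PSMPs by log2 2.51 ± 0.39 (0.0141), a call kept in 16 of 20 alternatives and lost without any 1 of these 4 libraries (adjusted p from 2.06e-11 to 0.162 over the alternatives).

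Rbx1, the RING subunit of the Cul3 ligase, rose against con-in vitro in PSMPs & OE-Hdac3 (log2 1.93 ± 0.34, adjusted p = 0.0101, lost without PSMPs & OE-Hdac3 replicate 2 at 0.0605, from 1.28e-05 over the alternatives), SAHA (log2 2.95 ± 0.35, 0.000672) and in vitro PSMPs (log2 2.95 ± 0.35, 0.000764). In con-in vitro it was also below its level in con (log2 -2.52 ± 0.35, 0.00133). Cul3 itself did not pass in any of these 4 comparisons.

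Gsk3b, a kinase that marks Nrf2 for degradation, averaged 28 ± 2.4 CPM in PSMPs & OE-Hdac3, 82.4 ± 13.4 in SAHA, 402 ± 276 in con-in vitro and 3.76 ± 3.68 in con (SD, n = 2 each). SAHA lay above con in Gsk3b (log2 4.46 ± 0.84, adjusted p = 0.0107, from 8.05e-07 to 0.0828 over the alternatives, lost without either SAHA library). The gene was lower in PSMPs & OE-Hdac3 than in con-in vitro (log2 -3.85 ± 0.81, 0.0254, kept in 13 of 20 alternatives and lost without either PSMPs & OE-Hdac3 library, con-in vitro replicate 2 or any library of in vitro PSMPs or SAHA). Con-in vitro was higher than con in Gsk3b (log2 6.75 ± 0.93, 0.00149) and in Crebbp, a coactivator of Nrf2 (log2 2.15 ± 0.37, 0.0038). In SAHA against con Mafg (log2 -2.43 ± 0.45, 0.0105) and Nfe2l1 (log2 -2.92 ± 0.40, 0.00409) fell, and both calls were lost without SAHA replicate 1. In the difference between the effects of exposure in culture and in the animal, Rbx1 (log2 3.29 ± 0.55, 0.00797), Mafg (-3.78 ± 0.67, 0.0102) and Bach1, a repressor that competes with Nrf2 for its sites (adjusted p = 0.0494, kept in 10 of 20 alternatives), passed.

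Of 26 other Nrf2 target genes, 22 were tested. In in vitro PSMPs 5 rose and 1 fell against con-in vitro (8.57% and 6.78% of all genes), and SAHA gave the same counts (11.7% and 8.14% of all genes). PSMPs & OE-Hdac3 gave 2 higher and 1 lower (2.47% and 3.94% of all genes), SAHA against con 1 higher and 2 lower (20.2% and 6.75%), and in vivo PSMPs against con gave 0 higher and 0 lower (4.59% and 0.287% of all genes; DESeq2 called 1 higher). That last count was 2 and 6 higher without con replicate 1 and 2, 3 without either con-in vitro library, and 5 with in vivo PSMPs as 2 libraries. Against con-in vitro, 2 rose in in vitro PSMPs without either of its libraries, 2 rose in SAHA without SAHA replicate 1 and 3 without replicate 2, and with library totals 8 were higher in PSMPs & OE-Hdac3. In that group none was higher without its replicate 1 and 1 without its replicate 2, with none lower in either fit, and without either con library 6 were higher. Prdx1, a thiol peroxidase with processed copies in the mouse genome among which counting could split reads, averaged 599.9 ± 45.7 CPM in PSMPs & OE-Hdac3, 2568 ± 14.6 in SAHA and 2209.6 ± 759 in in vitro PSMPs. It averaged 126 ± 41.2 CPM in con-in vitro and 1342 ± 600.3 in con (SD, n = 2 each). Prdx1 rose against con-in vitro by log2 4.34 ± 0.46 in SAHA (adjusted p = 0.000425) and by 4.13 ± 0.46 in in vitro PSMPs (0.000611). Between the controls, the test called 1 of the 22 higher and 4 lower in con-in vitro (14.7% and 10.5% of all genes). Taldo1, of the pentose phosphate pathway, averaged 13.5 CPM there and 218 CPM in con (log2 -4.01 ± 0.46, adjusted p = 0.000601). Idh1, which makes cytosolic NADPH, averaged 731 and 75.5 CPM (log2 3.27 ± 0.47, 0.0018). In PSMPs & OE-Hdac3, SAHA and in vitro PSMPs, Taldo1 stood at 58.7 to 145 CPM, under con (197 and 239 CPM). Idh1 stood at 51.4 to 107 CPM in these groups, overlapping con (105 and 46.1 CPM). Against con-in vitro, Taldo1 rose and Idh1 fell in these 3 groups. In PSMPs & OE-Hdac3 Taldo1 lost its call without replicate 1 and Idh1 without either replicate (adjusted p up to 0.075 and 0.0742 over the alternatives), and Idh1 in SAHA without SAHA replicate 2 (0.0505). In SAHA against con, Txn1, which encodes thioredoxin (log2 -2.08 ± 0.49, adjusted p = 0.0175), and Tkt, of the pentose phosphate pathway (log2 -4.06 ± 1.05, 0.0231), fell, and Me1, which makes NADPH, rose (log2 1.58 ± 0.43, 0.028). Leaving out either SAHA library ended all 3 calls, with an adjusted p up to 0.102, 0.13 and 0.113 over the alternatives. In PSMPs & OE-Hdac3 against in vitro PSMPs, Me1 (log2 -2.26 ± 0.44, 0.0237) and Prdx1 (log2 -1.88 ± 0.42, 0.0381) fell, kept in 14 and 12 of 20 alternatives and lost without any 1 library of these groups or of SAHA.

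Of 25 other genes of glutathione supply and use, 23 were tested. Against con-in vitro 3 were higher in PSMPs & OE-Hdac3, 8 in SAHA and 7 in in vitro PSMPs, and none was lower (higher among all genes, 2.47%, 11.7% and 8.57%). In SAHA against con 1 was higher and none lower (20.2% and 6.75% of all genes), with a median log2 fold change of -0.03, where that of all genes was 0.59. Con-in vitro itself had 2 higher and 8 lower than con (14.7% and 10.5% of all genes). The median log2 fold change of this list was 2.06 in in vitro PSMPs against con-in vitro (all genes 0.71), 2.50 in SAHA against con-in vitro (all genes 0.66) and -2.33 in con-in vitro against con (all genes 0). Oocyte markers moved in the same comparisons. Against con-in vitro, 5 of 15 rose in in vitro PSMPs (median 1.94, 8.57% of all genes higher) and 7 in SAHA (median 2.00, 11.7% of all genes higher). In con-in vitro against con 5 fell (median -0.31, 10.5% of all genes lower). The blood, immune and endothelial markers summed to 5.93 and 12 CPM in con-in vitro and to 15.2 to 107 CPM in the other libraries. Outside con-in vitro most of the sum was Pecam1, an endothelial gene that stood at 93.8 and 49.8 CPM in con. It was higher in in vitro PSMPs (log2 5.64 ± 0.85, adjusted p = 0.00279) and SAHA (log2 6.02 ± 0.86, 0.00184) than in con-in vitro. Of the 3 markers tested, Cd68 also passed in both, at means of 2.83 and 2.5 CPM, and Kdr in neither. Cdh5, also endothelial, stood at 0 CPM in SAHA, in vitro PSMPs and con-in vitro. The 100 most abundant genes took 52.2% and 53.3% of counts in con-in vitro and 19% to 36.1% elsewhere. The part of these in the list's changes was not tested. Without either con library 12 were higher in both SAHA and in vitro PSMPs, with 2 and 1 lower, and 6 in PSMPs & OE-Hdac3. With library totals 12 were higher in PSMPs & OE-Hdac3, 11 in SAHA and 12 in in vitro PSMPs, and DESeq2 called 6, 11 and 11, with 1 lower in SAHA and in in vitro PSMPs. In in vivo PSMPs against con 1 gene of this list was higher, Mgst1, which encodes a microsomal glutathione transferase (9.74 CPM with exposure in the animal, against 0 and 0.0515 CPM in con, adjusted p = 0.0463). That call held in 12 of 20 alternatives and was lost without any 1 library of in vitro PSMPs, SAHA or PSMPs & OE-Hdac3 (adjusted p from 0.000418 to 0.719 over the alternatives). Among the cumulus and granulosa markers, Inha stood at 59.4 CPM in in vivo PSMPs and at 0 in con. The median log2 fold change of these markers was 6.62, where that of all genes was 0.25. Cyp19a1 (20.4 CPM) and Nr5a2 (32.4 CPM) lay between the con libraries, and Kitl (0.0516 CPM) lay below them. The part of these markers was not tested. Of all genes tested, 4.59% were higher in in vivo PSMPs than in con.

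Gpx1, the cytosolic glutathione peroxidase, stood at 28.4 and 11.6 CPM in PSMPs & OE-Hdac3, 52.6 and 44.1 CPM in SAHA, 47.4 and 56.6 CPM in in vitro PSMPs, and 44.9 CPM in in vivo PSMPs. It stood at 0 and 0.273 CPM in con-in vitro, where replicate 2 had 1 count, and at 59.1 and 64.0 CPM in con. Con-in vitro was below every other library. Ggct, which cleaves gamma-glutamyl peptides, averaged 769 ± 53.6 CPM in PSMPs & OE-Hdac3, 933 ± 149.6 in SAHA and 958 ± 144 in in vitro PSMPs, against 102 ± 32.7 in con-in vitro and 1789.8 ± 851 in con (SD, n = 2 each). Against con, con-in vitro was lower in Ggct (log2 -4.14 ± 0.44, adjusted p = 0.000452) and in Gpx1 (log2 -8.70 ± 0.97, 0.000533). Chac1, which degrades glutathione, stood at 12.2 and 8.82 CPM in PSMPs & OE-Hdac3 and at 0 in con-in vitro, at least 24.7-fold higher (adjusted p = 0.0365), a call kept in 10 of 20 alternatives (0.000271 to 0.169) and lost without any 1 library of con-in vitro, in vitro PSMPs, SAHA or PSMPs & OE-Hdac3. Mgst3 and Chac2 fell in PSMPs & OE-Hdac3 against in vitro PSMPs (log2 -2.09 ± 0.34, adjusted p = 0.0147, and log2 -2.76 ± 0.53, 0.0217), calls kept in 17 and 14 of 20 alternatives and lost without either PSMPs & OE-Hdac3 library (adjusted p from 5.84e-06 to 0.188 for Mgst3 and 2.68e-05 to 0.238 for Chac2 over the alternatives). Chac2 degrades glutathione, and Mgst3 encodes a microsomal transferase.

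**Figure D4:**
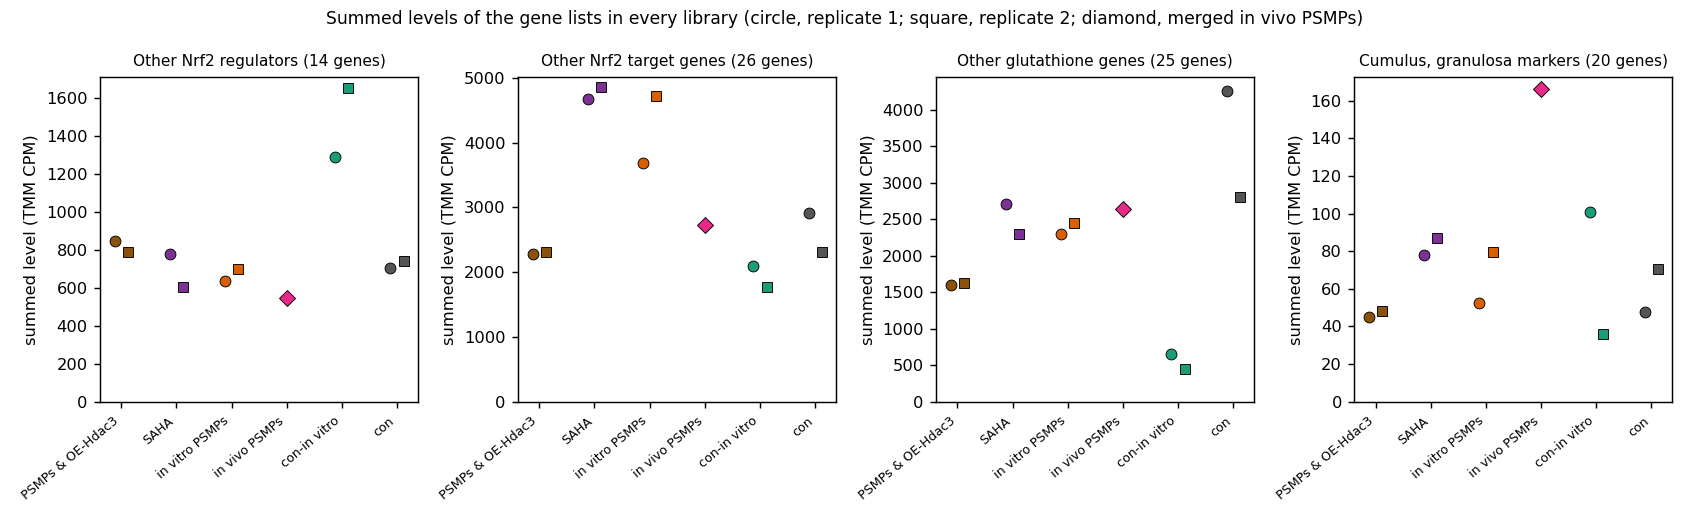
Summed level (TMM CPM, linear axes from 0) of 3 lists of pathway genes and of the cumulus and granulosa markers in 11 libraries, by group, with circles for replicate 1, squares for replicate 2 and a diamond for the merged in vivo PSMPs. Other glutathione genes sum to 443 and 650 CPM in con-in vitro and to 1597 CPM or more elsewhere. The sum of the regulators is highest in con-in vitro, though not each of them is. Rbx1, at 38.3 and 35.2 CPM, is lowest there.

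Genes whose levels followed each of the 9 most closely were found by Pearson's r of log2(CPM + 1) over 11 libraries, among 7138 genes with a mean of at least 10 CPM. With so many candidates and 11 libraries that share depth and group, they are given as a description. For Slc7a11 they were Mex3c (r = 0.972) and Atp13a3 (0.951), for Keap1 Sfswap (0.985) and Lzts2 (0.959), and for Nfe2l2 Arxes2 (0.954) and Rnf115 (0.941). For Nqo1 they were Stau2 (0.962) and Cep57 (0.926), for Hmox1 Dnah8 (0.954) and Grm2 (0.913), and for Gclc Vwa8 (0.965) and Cenpj (0.948). The highest values were lower for Gclm (Kcnh1, 0.930, and Pxn, 0.901), Gsr (Cnpy1, 0.913, and Pdk1, 0.892) and Gss (Tfpt, 0.873, and Psma4, 0.858). Among the 9 genes themselves, r ran from -0.69 between Gclm and Gss to 0.66 between Gclc and Gsr. Nfe2l2 and Keap1 gave -0.68, and Nfe2l2 with its targets gave 0.45 for Hmox1 and -0.49 for Nqo1.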

How the data were processed

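The members and gene lists were chosen with earlier results of these data known. The authors deposited raw counts per gene for 12 RNA libraries, with positions and lengths in mm10. The submitters' processing notes name fastp 0.12.4, HISAT2, featureCounts and DESeq2 without roles, and per the labels' protocols cDNA came from a full-length single-cell kit. Analysis used R 4.3.3, edgeR 4.0.16 and DESeq2 1.42.0. Genes were kept by filterByExpr (minimum count 10), scaled by TMM, and fitted with 1 coefficient per group over 11 libraries (robust quasi-likelihood, 5 residual degrees of freedom, common biological coefficient of variation 71.9%). Each standard error was derived from a fold change and its F statistic. Always named were the 9 members. Calls of other pathway genes were described from the 3 of smallest adjusted p per list and comparison, with at least 5 CPM in the higher group. Not all of these were described, so a gene left out may have passed. Markers of blood, immune and endothelial cells had counts for 2 to 5 of 12 genes per library. Floors cover counting error only. The procedure was tested on simulated data. Alternatives were other filters, scalings and DESeq2's test, a replicate block, only the compared groups, unmerged columns, and each column left out.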

Additional observations from a re-analysis of the deposited data

How the results depend on the processing

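Of 81 fold changes of the 9 genes over 20 alternatives, 35 changed sign in at least 1 and 34 passed in at least 1. The number of the 9 genes that passed is given with the share of all genes that passed. In SAHA against con-in vitro it moved from 0 to 1 with a minimum count of 50 (27.2%), no filter (10.1%), library totals (24.8%) or in vivo PSMPs as 2 libraries (27.9%). DESeq2's test gave 2 there (32%). In SAHA against con the number stayed at 1 with a minimum count of 50 (23.9%), but Slc7a11 passed and Hmox1 was not tested. There it moved from 1 to 2 with no filter (16.5%), library totals (26.5%) or in vivo PSMPs as 2 libraries (34.1%), and to 0 with only the compared groups (0%). With only the compared groups it was 3 in PSMPs & OE-Hdac3 against in vitro PSMPs (33.4%). Against in vivo PSMPs such a fit holds 1 sample of that group, so its calls are not counted here. In PSMPs & OE-Hdac3 against con-in vitro the number was 1 with no filter (3.86%), library totals (27.3%) or in vivo PSMPs as 2 libraries (13.5%). DESeq2's test gave 2 there (18.4%) and 2 between the controls (35.1%). The cause was not tested. Leaving out 1 library gave 0 to 2 in both exposures and in their difference, 0 to 4 in both SAHA comparisons and between the controls, 0 to 1 in PSMPs & OE-Hdac3 against in vitro PSMPs, and 0 to 3 against con-in vitro. Deviations of same-numbered libraries correlated by -0.0477 to 0.0406 in the groups compared directly. In other pairs of groups the correlation was -0.221 for con with in vitro PSMPs and -0.0828 for in vitro PSMPs with SAHA. With so few libraries, and in vivo PSMPs columns that hardly differ, this cannot show whether replicate numbers mark pairs or batches. The fit with a replicate block kept Hmox1 in SAHA against con and called none of the 9 elsewhere. It called 4 genes in all in in vivo PSMPs against con (817 without it), 2305 in SAHA against con-in vitro (3313), 537 (808) and 709 (1073) in PSMPs & OE-Hdac3 against in vitro PSMPs and con-in vitro.

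Signs turned in in vivo PSMPs against con for Nfe2l2 (0.0658, library totals) and Gsr (0.41, library totals, and 0.59, replicate block). In in vitro PSMPs against con-in vitro they turned for Keap1 (0.34), Gclm (0.64) and Gsr (0.83) with library totals, and for Gsr with the replicate block (0.47) and only the compared groups (0.0256). Leaving out 1 library, the log2 fold change in in vivo PSMPs against con ran from -1.21 to 1.87 for Nfe2l2, -1.91 to 3.01 for Nqo1, -0.93 to 2.78 for Gsr and -1.02 to 0.43 for Slc7a11. In in vitro PSMPs against con-in vitro it ran from -1.31 to 0.78 for Keap1, -0.42 to 5.91 for Gclc and -1.24 to 8.63 for Gsr.

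Counts over all genes moved by over 1.5 times, from 0 to 4336 in in vivo PSMPs against con and from 1096 to 5451 in in vitro PSMPs against con-in vitro (2570). They ran from 1111 to 6401 in SAHA against con-in vitro, from 0 to 6657 in SAHA against con (4511), from 0 to 5567, 0 to 7472 and 284 to 4562 in PSMPs & OE-Hdac3 against in vitro PSMPs, in vivo PSMPs and con-in vitro, from 1502 to 6538 between the controls (4205), and from 255 to 5028 for the difference (1886). With library totals in vitro PSMPs had 3473 higher and 758 lower, against 1435 and 1135 with TMM factors, and PSMPs & OE-Hdac3 4171 and 391 against con-in vitro, where TMM gave 414 and 659. Hmox1 and Gss, with 0 counts in con-in vitro, are known only to lie under its floor of 0.427 CPM.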
